A study of Homo sapiens with 8 samples.

Results

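Zinc finger genes of chromosome 19 were taken as the protein-coding genes of that chromosome whose symbol is ZNF followed by digits only, in the GENCODE 44 annotation of GRCh38. There were 240 of them among 19970 protein-coding genes of chromosomes 1 to 22 and X, against 1236 other protein-coding genes on chromosome 19 and 236 genes with such symbols on other chromosomes. Of the 240, 83 lay on the p arm and 157 on the q arm, 131 on the plus strand and 109 on the minus strand.

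Most zinc finger genes of this chromosome arose by tandem duplication and stand in large clusters. Many of their proteins carry a KRAB domain, which recruits the corepressor TRIM28 and, through it, the histone methyltransferase SETDB1, which places H3K9me3 on chromatin. Their zinc finger arrays bind DNA, often inside transposable elements, and the 3′ ends of the genes themselves are known to carry H3K9me3.

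Accessible DNA was measured by ATAC-seq, in which the Tn5 transposase inserts sequencing adapters into open chromatin. The cells were the established human line RUES2, which derives from an embryo and is pluripotent, carried through directed cardiac differentiation, with no genetic change named. The groups were hESC (day 0), MES, mesoderm (day 2), CP, cardiac progenitors (day 5), and CM, cardiomyocytes (day 14), with 2 replicate libraries each, whose values are given below in the order of replicates 1 and 2. The hESC libraries came from cells kept on laminin-521 in E8 medium, with CHIR-99021, an activator of Wnt signalling, added on the day before collection. MES cells had then received more CHIR-99021 in RBA, a medium of RPMI with albumin and ascorbic acid. CP cells had in addition been given Xav-939, a Wnt inhibitor, from day 3, and CM cells had gone on in RBA and then in RPMI with B27. No sorting of cells is stated, and all groups come from 1 cell line, so the p-values below measure the spread between these libraries only.

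The unit of measurement was the peak of a library. Its fold is the pileup of cut sites over the local background of the same library, as listed by the peak caller MACS2, and a gene had a promoter peak where a peak came within 1 kb of the TSS of one of its protein-coding transcripts. The lists held 55873 to 156282 peaks. The lowest background listed, which scales with the reads of a library, was 2.54 to 4.62 reads of pileup. CM replicate 2 had the shortest list and the lowest background. At the lowest background of a library, the weakest peak listed had a fold of 2.84 to 3.39, and where the local background was higher, peaks of lower fold were listed too. A missing peak therefore says only that none passed the threshold of the list there. Promoter peaks of stage markers followed the labels only in part. Of 6 hESC markers, NANOG had a peak in the hESC and MES libraries and in neither CP nor CM. POU5F1 lacked one in CM replicate 2 alone, and DPPA4 in CM replicate 1 alone. SOX2, TDGF1 and LIN28A had one in all 8 libraries, with CM minus hESC log2 differences of 0.43, 0.10 and 0.21 that limma did not call. All 6 MES markers had one in all 8 libraries. TBXT was called lower in CM than in hESC (log2 difference -0.55, limma adjusted p = 0.035). MESP1 was called higher (log2 difference 0.49, limma adjusted p = 0.0446), where 3.89% of all genes were called. Of 6 CP markers, 4 had one in all 8 libraries, and none was called. Of 6 CM markers, MYH6, the atrial myosin heavy chain, had a peak in CP replicate 2 and both CM libraries, and NPPA in CM replicate 1 alone. TNNT2, ACTN2 and TTN had one in all 8 libraries, with uncalled log2 differences of 0.20, -0.27 and -0.19, and MYH7, a defining CM gene, had none in any library. Genes that mark other cells also had promoter peaks. SOX17, PAX6 and SOX1 had one in all 8 libraries, hESC included, and the endothelial marker CDH5 in none. In each library, 3 to 5 of the 6 such genes had one. A promoter peak alone therefore does not show that such cells were present. The part of other cells in the results was not tested.

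Sequence around the start sites is shown for 7 members of the cluster from ZNF101 to ZNF254. These promoters resemble each other in sequence and differ in whether a peak was listed over them. They were picked by hand and are not consecutive. Other members between them are not shown, such as ZNF724, between ZNF730 and ZNF91, with a peak in all 8 libraries. Each run covers 250 bases before to 50 after the RefSeq start site in GRCh38.p14, 5′ to 3′ on the strand of the gene. Capitals mark the ETS motif CCGGAAG and the words CCTGATTGGA, CTGTCACTCA and GAGGAAGCCC, each on either strand. The words were picked after promoter sequences had been counted. ZNF43 (chr19:21836133-21836432, minus strand), ZNF730 (chr19:23116775-23117074, plus strand) and ZNF91 (chr19:23395422-23395721, minus strand) had a peak over these bases in all 8 libraries.
ZNF43: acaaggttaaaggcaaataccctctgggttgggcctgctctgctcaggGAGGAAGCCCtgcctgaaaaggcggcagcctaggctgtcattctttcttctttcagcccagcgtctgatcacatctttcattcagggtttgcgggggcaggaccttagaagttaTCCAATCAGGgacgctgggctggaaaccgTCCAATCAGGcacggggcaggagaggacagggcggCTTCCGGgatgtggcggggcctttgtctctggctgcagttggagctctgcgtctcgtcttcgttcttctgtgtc
ZNF730: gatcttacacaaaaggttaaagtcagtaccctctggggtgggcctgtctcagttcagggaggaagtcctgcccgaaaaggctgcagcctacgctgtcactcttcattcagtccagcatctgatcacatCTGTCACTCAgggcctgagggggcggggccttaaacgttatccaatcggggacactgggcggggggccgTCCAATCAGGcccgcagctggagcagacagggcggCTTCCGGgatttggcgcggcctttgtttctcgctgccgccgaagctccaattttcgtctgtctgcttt
ZNF91: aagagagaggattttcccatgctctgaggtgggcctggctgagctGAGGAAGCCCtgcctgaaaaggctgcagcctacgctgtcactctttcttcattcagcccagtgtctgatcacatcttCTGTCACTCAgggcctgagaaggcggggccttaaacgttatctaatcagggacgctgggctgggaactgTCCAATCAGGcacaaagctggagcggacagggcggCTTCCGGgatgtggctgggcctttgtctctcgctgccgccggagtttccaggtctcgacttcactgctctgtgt
ZNF208 (chr19:22010894-22011193, minus strand), ZNF257 (chr19:22052234-22052533, plus strand), ZNF492 (chr19:22634074-22634373, plus strand) and ZNF723 (chr19:22832041-22832340, plus strand) lie between ZNF43 and ZNF730 and had none over these bases in any library.
ZNF208: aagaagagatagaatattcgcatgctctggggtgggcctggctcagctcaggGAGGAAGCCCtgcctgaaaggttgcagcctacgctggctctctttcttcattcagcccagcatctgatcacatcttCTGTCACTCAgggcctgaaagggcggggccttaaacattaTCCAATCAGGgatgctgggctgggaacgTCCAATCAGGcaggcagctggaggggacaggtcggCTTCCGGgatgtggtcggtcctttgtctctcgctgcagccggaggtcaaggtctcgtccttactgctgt
ZNF257: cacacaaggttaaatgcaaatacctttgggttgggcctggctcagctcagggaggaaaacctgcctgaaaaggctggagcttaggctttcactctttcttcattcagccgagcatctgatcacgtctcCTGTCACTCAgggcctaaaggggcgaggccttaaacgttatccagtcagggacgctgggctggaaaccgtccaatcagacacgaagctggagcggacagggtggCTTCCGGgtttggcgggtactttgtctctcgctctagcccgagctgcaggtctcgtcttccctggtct
ZNF492: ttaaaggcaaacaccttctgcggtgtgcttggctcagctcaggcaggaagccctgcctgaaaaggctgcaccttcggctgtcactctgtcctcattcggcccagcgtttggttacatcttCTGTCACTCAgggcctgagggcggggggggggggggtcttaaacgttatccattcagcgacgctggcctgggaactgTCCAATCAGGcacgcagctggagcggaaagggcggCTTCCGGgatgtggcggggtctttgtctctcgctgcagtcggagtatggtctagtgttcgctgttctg
ZNF723: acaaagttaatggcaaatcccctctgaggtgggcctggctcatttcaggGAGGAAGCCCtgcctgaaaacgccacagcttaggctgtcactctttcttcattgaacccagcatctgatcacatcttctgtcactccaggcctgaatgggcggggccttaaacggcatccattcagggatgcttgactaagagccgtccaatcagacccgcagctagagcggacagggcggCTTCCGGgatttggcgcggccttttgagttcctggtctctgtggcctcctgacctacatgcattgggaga
All 7 runs held the ETS motif. Over these bases, peak folds ranged from 10.7 to 14.2 for ZNF43, from 8.22 to 11.7 for ZNF730 and from 11.1 to 15.4 for ZNF91. The 12 alignments of a promoter with a peak against one without had identities of 72.3% to 85.7%, with a median of 77.3%. The 3 alignments among promoters with a peak gave 76.2% to 78.9%, and the 6 among promoters without gave 70.9% to 80%. The promoter of ZNF208 was thus closer in sequence to that of ZNF91 (85.7%) than to any of the other 5 shown. ZNF43, ZNF730 and ZNF91 held 12, 16 and 11 CpG dinucleotides, and ZNF208, ZNF257, ZNF492 and ZNF723 held 10, 13, 16 and 10, so the 2 sets overlapped.

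Most zinc finger genes of chromosome 19 had open promoters at every stage of the differentiation. A promoter peak was present in all 8 libraries for 219 of 240 members, or 91.25%, against 70.1% of all protein-coding genes and 63.3% of the other genes of chromosome 19. In zinc finger genes of other chromosomes the share was 91.5%. A peak was found in no library for 14 members (5.83%, against 15.5% of all genes) and in 1 to 7 libraries for 7 members (2.92%, against 14.4%).

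The number of members with a promoter peak was 224.5 ± 0.707 (hESC), 224 ± 1.41 (MES), 223.5 ± 0.707 (CP) and 220.5 ± 2.12 (CM), as the mean ± SD of 2 libraries each. It ran from 219 in CM replicate 2, the library with the shortest list, to 225 in hESC replicate 1 and MES replicate 2. In the same libraries, the number over all protein-coding genes was 15773 ± 456 (hESC) and 14860 ± 735 (CM).

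**Figure D1:**
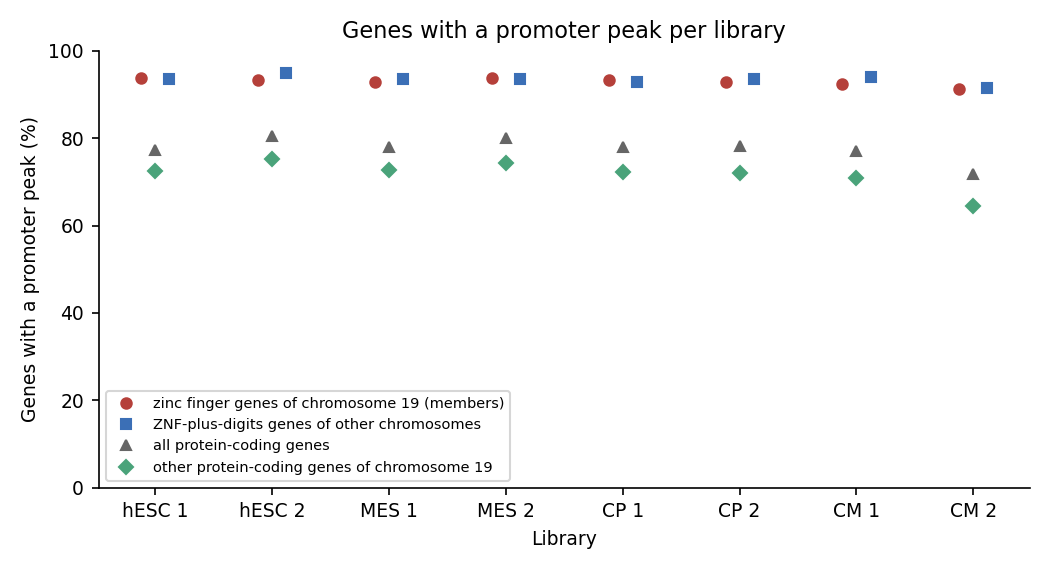
Percent of genes with a promoter peak (y axis) in each of the 8 libraries (x axis), for members and 3 other gene sets; each point is 1 library. Members and zinc finger genes of other chromosomes lie above all protein-coding genes in every library, and the other genes of chromosome 19 lie lowest.

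Peaks sat at the start sites themselves. The summit of the highest promoter peak lay at a median of -52 to -39.5 bp from the nearest TSS, where negative is upstream, depending on the library, and within 200 bp of it for 92% to 94.7% of the members with a peak. Median widths were 739 to 857 bp. Members had a median of 4 distinct TSSs, against 3 over all genes, so that their windows covered more sequence. The window of 42 members overlapped that of another protein-coding gene, for 18 of them another member, and a peak there cannot be assigned to 1 gene.

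The typical fold over background was also higher than at other promoters, with no test made of the difference. Among genes with a peak in all 8 libraries, the median of the mean fold was 10.1 in members, 9.04 in zinc finger genes of other chromosomes, 7.99 in all protein-coding genes and 6.91 in the other genes of chromosome 19. Members ranged on the log2 scale from 2.00 for ZNF296 to 4.06 for ZNF285, with an SD of 0.34 across members, and the ranges of all 4 sets overlapped.

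The 6 members with the highest mean fold were ZNF285, ZNF112, ZNF175, ZNF443, ZNF493 and ZNF431. At ZNF285, the fold was 17.2 and 17.3 (hESC, replicates 1 and 2), 17.5 and 16.7 (MES), 18.5 and 17.3 (CP), and 14.4 and 14.8 (CM). The CM libraries were the lowest and did not overlap the others, but the limma test below did not call this member, and its window overlaps that of another gene. ZNF112 had 14.5 and 15.96 (hESC), 17.7 and 17.2 (MES), 13.5 and 17.4 (CP), and 12.2 and 12.3 (CM). ZNF175 spanned 12.4 to 16.5, ZNF443 spanned 12.8 to 15.4, ZNF493 spanned 11.7 to 16.3 and ZNF431 spanned 10.8 to 16.4, each with overlap between hESC and CM.

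At the other end stood ZNF296 and ZNF536. ZNF296, a factor known from pluripotent cells, had a fold of 4.12 and 3.84 (hESC), 4.28 and 4.35 (MES), 3.55 and 4.27 (CP), and 4.30 and 3.42 (CM). The CM libraries overlapped those of each other stage, while both MES libraries lay above those of hESC and CP. ZNF536, a repressor of neuronal differentiation, had 3.93 and 4.87 (hESC), 5.42 and 5.27 (MES), 4.72 and 6.39 (CP), and 4.46 and 5.47 (CM). Here hESC and CM overlapped, while both MES libraries lay above hESC. Neither had another member within 500 kb.

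ZNF91, ZNF93, ZNF274, ZNF808, ZNF331, ZNF568, ZNF420 and ZNF649 had a promoter peak in every library. ZNF91, which represses SVA elements, had a fold of 11.9 and 11.3 (hESC), 12.7 and 12.0 (MES), 12.3 and 15.4 (CP), and 11.1 and 13.7 (CM). ZNF93, which acts on a family of LINE-1 elements, had 8.68 and 9.47 (hESC), 9.29 and 9.43 (MES), 10.5 and 11.4 (CP), and 9.15 and 8.89 (CM). In both genes the hESC and CM libraries overlapped. ZNF274, which recruits SETDB1 to the 3′ ends of zinc finger genes, ranged from 7.64 to 9.41, and ZNF808, known for its part in pancreas development, from 8.37 to 10.6. ZNF331, an imprinted gene, ranged from 10.4 to 14.0, ZNF568 from 9.58 to 12.2, and ZNF420, a repressor of p53 targets, from 10.1 to 14.8. ZNF649 was lower, with 5.31 and 5.15 (hESC), 4.43 and 5.56 (MES), 4.89 and 7.75 (CP), and 6.25 and 8.43 (CM).

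Members also differed by position along the chromosome. Those whose TSSs lay within 500 kb of a neighbour formed 20 clusters, of which 8 were single genes and 10 held at least 5 members, 228 in all. The median of the mean fold in these 10 clusters ran from 7.74 in ZNF628 to ZNF835, near the end of the q arm, to 12.0 in ZNF575 to ZNF180. Every member had a promoter peak in all 8 libraries in 2 of them, the 24 members from ZNF146 to ZNF573 and the 5 from ZNF302 to ZNF792. The lowest share was 73.0% (27 of 37), in the cluster from ZNF101 to ZNF254 beside the centromere. That cluster also had a high median fold of 11.8 among its 27 open members. Within it, ZNF43 had folds of 10.9 to 14.2, ZNF493 and ZNF431 were among the 6 highest, and ZNF254 at its centromeric end had 7.69 to 14.7. Among members with a peak in all 8 libraries, distance from the centromere and mean log2 fold had a Spearman correlation of -0.39 on the p arm (n = 68). On the q arm it was -0.12 (n = 151). Neighbours share promoter sequence and are not independent. Members without a peak in any library, 11 on the p arm and 3 on the q arm, were left out. Of these, 9 lie in the cluster beside the centromere.

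**Figure D2:**
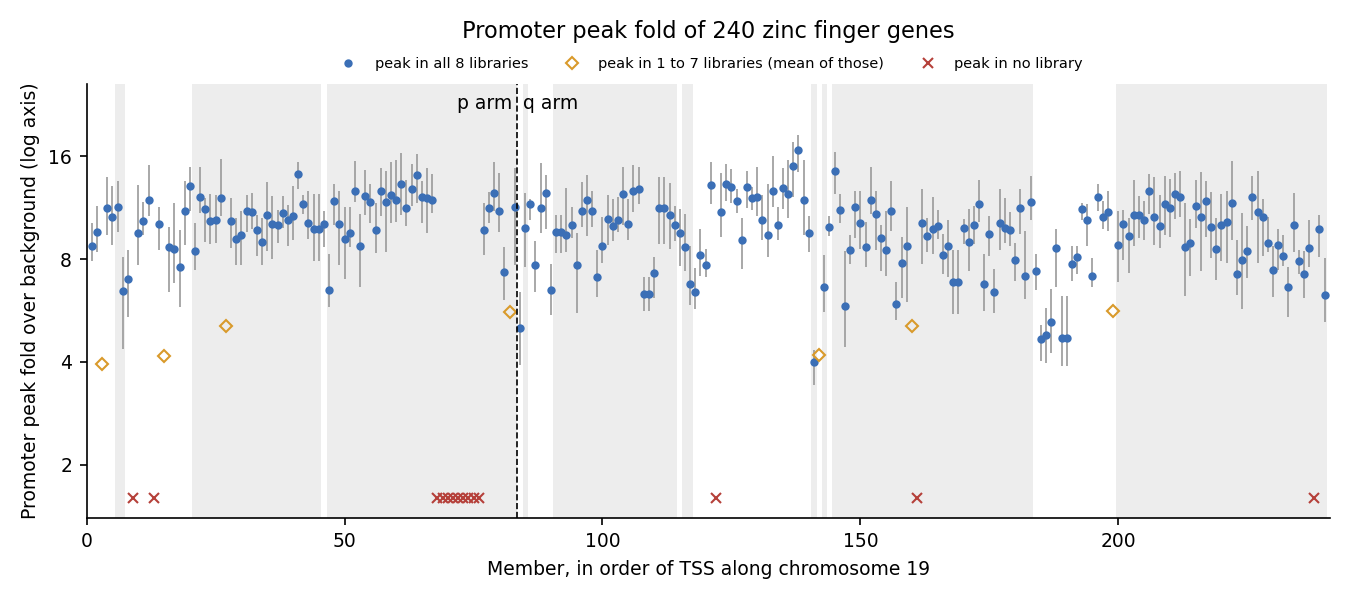
Promoter peak fold over background (y axis, log) of the 240 members in their order along chromosome 19 (x axis); points are means over 8 libraries, grey lines the range, and alternate shading marks clusters. Members with no peak in any library are crosses at the bottom, and 9 of the 14 are consecutive members within the p-arm cluster nearest the centromere.

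The members without a promoter peak in any library were ZNF558, ZNF177, ZNF208, ZNF257, ZNF676, ZNF729, ZNF98, ZNF492, ZNF99, ZNF723, ZNF728, ZNF404, ZNF534 and ZNF132. ZNF404 and ZNF132 were named after their values were seen. ZNF208, ZNF257, ZNF676, ZNF729, ZNF98, ZNF492, ZNF99, ZNF723 and ZNF728 are neighbours without another protein-coding gene between them. They fill chr19:21932958-23003176, a stretch of 1.07 Mb in the cluster from ZNF101 to ZNF254, with ZNF43 on one side and ZNF730 on the other. ZNF404 stands apart from the rest, since a peak was listed in all 8 libraries at chr19:43901267-43902204, within 1 kb of the start of a transcript of this gene that is not annotated as protein-coding.

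The whole stretch from ZNF208 to ZNF728 was nearly free of peaks. It was picked from these same lists as the longest run of members without a promoter peak. Its low peak count therefore follows in part from that choice, and the rest of the cluster includes the promoter peaks of open members. It held 0 peaks in 6 libraries, 1 in CP replicate 2 with a fold of 4.18 and 1 in CM replicate 1 with a fold of 4.49. Both lay between genes, 31392 bp from the TSS of ZNF492 and 69524 bp from that of ZNF723. The rest of the same cluster, with 28 members, held 88 and 93 peaks (hESC), 98 and 117 (MES), 88 and 93 (CP), and 73 and 61 (CM), or 18.0 to 34.5 per Mb. Of 1401 bins of 1 Mb in the genome with at least 5 protein-coding genes, the median held 110 peak regions. Only 3 held as few as the bin inside this stretch, that bin included. The others began at 19 Mb on chromosome 14 and at 33 Mb on chromosome 16.

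The authors kept only reads with a mapping quality above 30, and duplicated genes can lose reads to such a filter. Of the 75-base sequences in the promoter windows of these 9 members, 91.4% to 100% (median 99.7%) occurred once in the genome, the lowest share being that of ZNF208. Over the whole stretch the share was 94.96%, and over the rest of the cluster 96.6%. These shares count exact matches only, while a read with a near match elsewhere can also fall below the filter. Whether reads were lost to the filter in this stretch was not tested. The peak lists keep the numbers that MACS2 gives its peaks, and no number was missing on chromosome 19 in any library. This bears only on peaks taken out after calling, and not on reads lost before it.

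**Figure D3:**
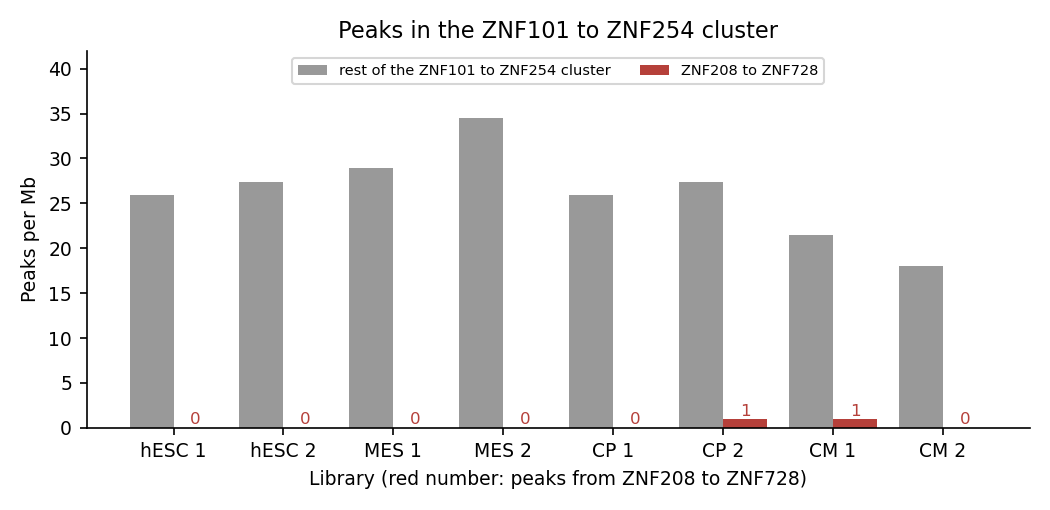
Peaks per Mb (y axis) in each of the 8 libraries (x axis), for the stretch from ZNF208 to ZNF728 (red) and the rest of its cluster (grey); red numbers are the peaks in the stretch. The stretch has 0 or 1 peak in every library while the rest of the cluster has 18.0 to 34.5 per Mb. The stretch was picked for its lack of promoter peaks, which the rest includes.

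A further 7 members had a promoter peak in some libraries. ZNF560 had folds of 5.56 and 4.80 (hESC), 4.52 and 3.04 (MES), 3.42 in CP replicate 1, and no peak in the other 3 libraries. ZNF439 had 4.60 and 5.34 (hESC), 5.43 and 6.89 (MES), 3.85 and 4.88 (CP), and none in CM. ZNF541, a gene known for its role in meiosis, had 5.71 and 4.47 (hESC), 3.65 in MES replicate 2, 3.33 in CP replicate 1, and none in CM. These 3 were the members with a peak in both hESC and neither CM library, against 2.46% of all genes, and no member had the opposite pattern, against 0.406%. Every fold among these values lay below the median of the members. With lists of equal length, 0 members had a peak in both hESC and neither CM library, and without CM replicate 1 there were 5, so the count of 3 depended on these choices.

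In the other 4, peaks did not separate both hESC libraries from both CM libraries. ZNF528 had 6.43 and 5.00 (hESC), 4.22 in MES replicate 2, 3.79 and 7.66 (CP), and 4.49 in CM replicate 1. ZNF726 had 6.77 in hESC replicate 1, 5.65 and 5.06 (MES) and 5.11 in CP replicate 2, and none in either CM library. ZNF835 had a peak in 7 libraries, from 4.06 to 7.43, and lacked one in CM replicate 2, and ZNF556 had a single peak, of 3.95 in CM replicate 1. ZNF835 and ZNF556 were named after their values were seen.

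Whether promoter fold changed with stage was tested in the 219 members with a peak in all 8 libraries, within a limma fit of log2 fold over 14000 genes, with Benjamini-Hochberg adjustment over all of them. The moderated F-test over the 4 stages called 1 member, ZNF358, where 2.04% of all genes were called. An unadjusted p below 0.05 was found for 28 of the 219, against 17.7% of all genes. Between CM and hESC, 5 members were called, against 3.89% of all genes. Of these 3 were lower in CM (2.55% of all genes) and 2 higher (1.34%). The share called among members was thus near that of all genes or below it.

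Changes were small for the rest. The difference of CM minus hESC had a median of 0.04 on the log2 scale among members and 0.01 among all genes, and the median of its size was 0.11 and 0.14. It was positive for 125 members and negative for 94. For the single steps, limma called 0 members from hESC to MES, where 0.0214% of all genes were called, 0 from MES to CP (0.0143%) and 0 from CP to CM (0.357%). At an unadjusted p below 0.05 these steps held 11, 8 and 28 of the 219 members, against 5.79%, 6.74% and 13.3% of all genes.

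The 3 members called lower in CM were ZNF358, ZNF671 and ZNF578. The promoter of ZNF358 had a fold of 7.57 and 7.78 (hESC), 7.01 and 6.75 (MES), 5.90 and 8.13 (CP), and 4.36 and 5.06 (CM). Both CM libraries lay below the other 6, and CM was 0.63 times hESC after centring (log2 difference -0.66 ± 0.11 SE, n = 2 and 2, adjusted p = 0.0118 in limma). It was also the member called by the F-test (limma adjusted p = 0.0447), a call that was lost under several alternatives, among them no centring, quantile normalization, missing values set to the lowest fold, and leaving out any hESC, MES or CM library.

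ZNF671 had a fold of 12.4 and 11.2 (hESC), 10.8 and 10.3 (MES), 10.0 and 10.9 (CP), and 7.89 and 7.91 (CM). Its CM libraries again lay below all others, at 0.69 times hESC (log2 difference -0.53 ± 0.11 SE, limma adjusted p = 0.0253). ZNF578 had 11.2 and 12.0 (hESC), 11.5 and 12.8 (MES), 8.47 and 11.1 (CP), and 7.75 and 8.18 (CM), so that CP replicate 1 came close to the CM libraries. CM was 0.71 times hESC (log2 difference -0.50 ± 0.11 SE, limma adjusted p = 0.0292).

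ZNF813 and ZNF865 were called higher in CM. ZNF813 had a fold of 6.12 and 6.09 (hESC), 6.95 and 6.57 (MES), 7.33 and 7.00 (CP), and 8.13 and 9.68 (CM), with no overlap between CM and the other stages. CM was 1.498 times hESC (log2 difference 0.58 ± 0.12 SE, limma adjusted p = 0.027). ZNF865 had 4.24 and 4.42 (hESC), 5.09 and 5.26 (MES), 5.81 and 5.31 (CP), and 5.75 and 6.53 (CM), where CM overlapped CP but not hESC. CM was 1.46 times hESC (log2 difference 0.54 ± 0.12 SE, limma adjusted p = 0.0347). ZNF671, ZNF813 and ZNF865 were named after their values were seen. All 5 kept their direction under each alternative tried, but none was called when either hESC library was left out, and with no centring only 1 was.

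**Figure D4:**
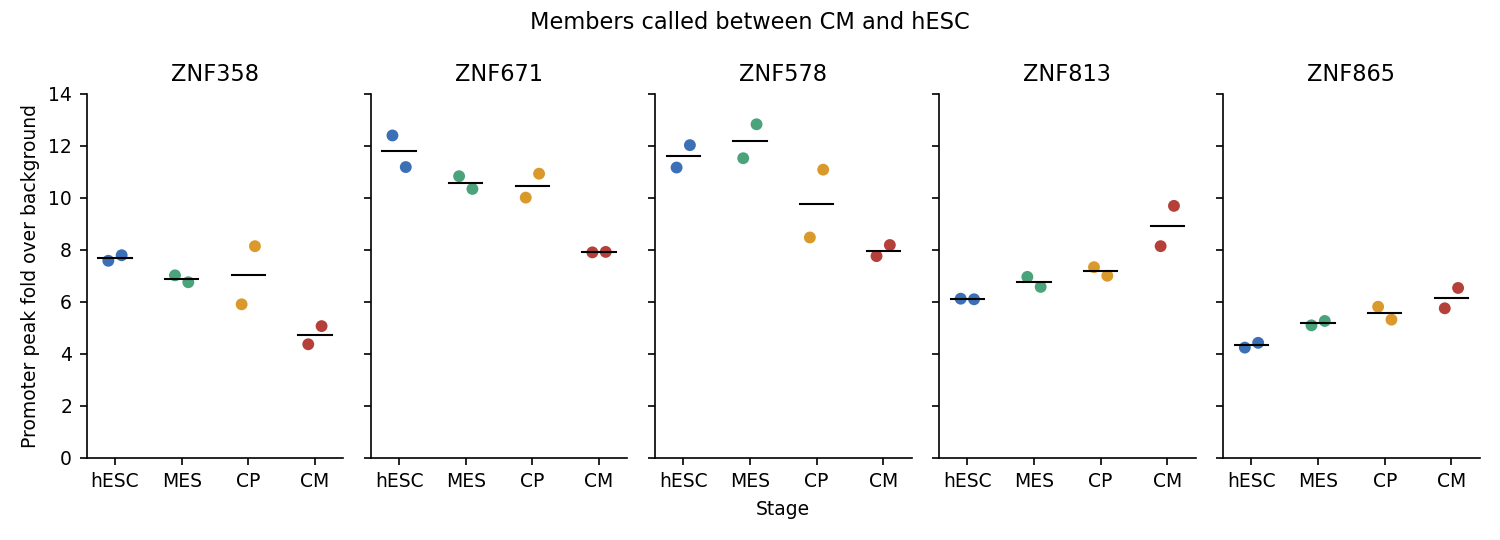
Promoter peak fold over background (y axis, from 0) of the 5 members called between CM and hESC, by stage (x axis); each point is 1 library, replicate 1 to the left, and black lines are means of 2. ZNF358, ZNF671 and ZNF578 are lowest in CM (4.36 to 8.18), and ZNF813 and ZNF865 are higher in CM (5.75 to 9.68) than in hESC.

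Genes of the repression pathway through which KRAB zinc finger proteins act were open at every stage. All 22 of the listed corepressor genes, with TRIM28, SETDB1 and genes of the HUSH complex among them, had a promoter peak in all 8 libraries, against 70.1% of all genes. The F-test called 0 of 22, against 2.04% of all genes, and the comparison of CM with hESC 0 in either direction, against 3.89%. Shares of that size would give less than 1 call in 22 genes. The genes had log2 differences of -0.30 to 0.41. TRIM28 had a fold of 7.87 and 7.12 (hESC) and 8.45 and 9.46 (CM), and SETDB1 had 10.4 and 9.83 (hESC) and 10.96 and 12.0 (CM). CM did not overlap hESC in either gene, but limma did not call them (adjusted p = 0.117 and 0.332).

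RefSeq promoters of 300 bases were matched to 210 of the 240 members, 194 of them with a peak in all 8 libraries and 9 with none. They were less rich in CpG than promoters at large, with a median of 20 CpG dinucleotides and 60.3% GC, against 22 and 62.7% over 15811 promoters. Among the 194, CpG number and mean log2 fold had a Spearman correlation of -0.32, so that members of high fold had, if anything, fewer CpG. The points are genes of shared origin and not independent.

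The ETS motif CCGGAAG, searched on both strands, stood in 91 of 210 member promoters (43.3%), against 14.1% of all promoters. It was present in 81 of 194 with a peak in all 8 libraries and in 8 of 9 without a peak. The median fold of the 194 was 10.3 with the motif and 10.1 without it. Other searched motifs were near the level of all promoters, at 24.8% against 22.1% for the SP/KLF box, 5.24% against 3.14% for the core ACTACAA of ZNF143 and 3.33% against 2.69% for YY1. NRF1 and CRE also stood at 3.33% each, against 1.78% and 2.56%. The TATA box TATAAA was found in 2.38%, against 9.75%.

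The 3 words marked in the sequences above recur in many members, nearly all of them on the p arm. On the q arm, the only match was GAGGAAGCCC at ZNF567. CCTGATTGGA was present in 43 promoters (20.5%, against 0.493% of all promoters), CTGTCACTCA in 33 (15.7%, against 0.455%) and GAGGAAGCCC in 24 (11.4%, against 0.462%). At least 1 of them stood in 54 of 210 members, and in 4 of the 9 without a peak, the 4 shown above. They were chosen for being frequent in members, and a match says only that these letters are present.

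Within gene bodies, peaks were sparse. Peaks more than 1 kb from every protein-coding TSS of the gene numbered 87 and 120 (hESC), 100 and 126 (MES), 87 and 106 (CP), and 92 and 46 (CM) over all members. That is 0.654 to 1.79 per 100 kb of gene body, against 3.06 to 7.70 in the other genes of chromosome 19, and members were lower in each of the 8 libraries. The lowest value of both sets was that of CM replicate 2. In each library, 10 to 14 of the member peaks lay in the promoter window of another protein-coding gene. Such peaks were not counted for the other genes of chromosome 19, and their part in the difference was not tested. A peak inside 2 overlapping members was counted for each of them, and the libraries held 44 to 119 distinct peaks. In all libraries together, 152 members had no such peak and 88 had at least 1.

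**Figure D5:**
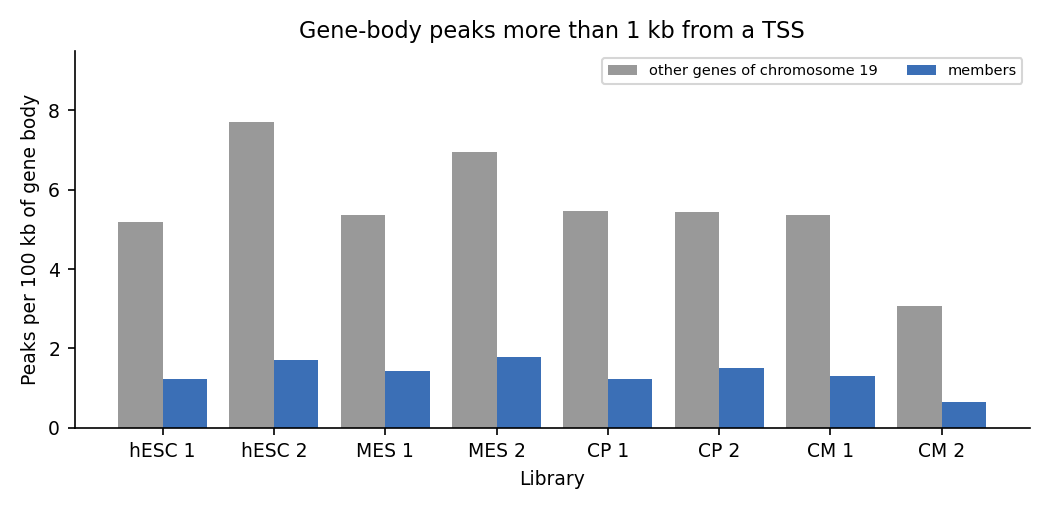
Peaks per 100 kb of gene body (y axis) in each of the 8 libraries (x axis). Members are in blue and the other protein-coding genes of chromosome 19 in grey. Only peaks more than 1 kb from every protein-coding TSS of the same gene were counted. Members lie between 0.654 and 1.79 and the other genes between 3.06 and 7.70.

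ZNF536 held 19.8% of all gene-body peaks as counted per member, 151 of 764. It had 20 and 30 (hESC), 17 and 26 (MES), 16 and 22 (CP), and 15 and 5 (CM), spread over 482 kb searched, while the median member was 25.5 kb long. Without it, members had 0.626 to 1.53 peaks per 100 kb. ZNF586 followed with 36 over all libraries, ZNF83 with 34, ZNF578 with 27 and ZNF627 with 23, and ZNF160, ZNF444, ZNF541, ZNF611 and ZNF765 had 19 each. The counts of ZNF578 were 4 and 3 (hESC), 6 and 5 (MES), 4 and 4 (CP), and 1 and 0 (CM).

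The last coding exon, which holds the zinc finger array in most of these genes, made up 5.03% of the searched length. It was overlapped by 4 and 3 peaks (hESC), 5 and 3 (MES), 3 and 3 (CP), and 6 and 0 (CM), or 0% to 6.52% of gene-body peaks. Merged over the libraries, gene-body peaks formed 222 regions, of which 195 were intronic, 18 touched another exon and 9 the last coding exon. A peak in all 8 libraries was seen in 25 regions, none of them in a last coding exon, and 86 regions rested on 1 library. Of the 25, 13 lay within 1 kb of a transcript start of the gene not annotated as protein-coding, or in the promoter window of another gene.

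A peak in both hESC and neither CM library was found in 27 of the 222 regions, against 13.5% of all regions, and the opposite in 9, against 3.15%. In the limma fit over 28115 regions with a peak in all 8 libraries, the F-test called 1 gene-body region of members (9.33% of all regions called). Between CM and hESC it called 3 higher (6.12%) and 1 lower (5.75%). For the regions named below, log2 differences are given after centring on the library median, while folds are as listed. Centring raised CM relative to hESC in these regions, so the differences do not match the folds in size. The part of centring in these CM against hESC calls was not tested. The region of the F-test was in an intron of ZNF83 (chr19:52600674-52602317), with folds of 7.30 and 6.74 (hESC), 8.26 and 7.99 (MES), 6.89 and 10.6 (CP), and 9.16 and 10.1 (CM). CM lay above hESC without overlap (log2 difference 0.67 ± 0.15 SE, limma adjusted p = 0.0163, F-test 0.0435), and the F-test called no region with quantile normalization or when any hESC, MES or CM library was left out.

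In an intron of ZNF536 (chr19:30406431-30406865), folds were 5.08 and 5.16 (hESC), 6.56 and 6.08 (MES), 4.35 and 8.03 (CP), and 6.80 and 6.50 (CM). Both CM libraries lay above hESC, with a log2 difference of 0.60 ± 0.18 SE (limma adjusted p = 0.0486), and the CP replicates were the lowest and the highest library there. The third region higher in CM was at ZNF584 (chr19:58400913-58401801), 146 bp from the gene's start and beside a transcript start not annotated as protein-coding, with 8.67 and 7.78 (hESC) and 9.26 and 11.04 (CM) and a log2 difference of 0.52 ± 0.14 SE (limma adjusted p = 0.0363). The region lower in CM (chr19:53389848-53390493) lay in introns of both ZNF525 and ZNF765, also beside such a start of ZNF765. Its folds were 6.78 and 7.89 (hESC), 6.34 and 7.57 (MES), 6.47 and 5.41 (CP), and 4.15 and 3.59 (CM), with the CM libraries below all others (log2 difference -0.70 ± 0.19 SE, limma adjusted p = 0.0335). ZNF584 and ZNF525 were named after their values were seen.

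ZNF274 is known to bind the 3′ ends of other zinc finger genes, and its own intron held a region with a peak in all 8 libraries (chr19:58203895-58204624). The folds were 8.28 and 7.60 (hESC), 8.91 and 9.43 (MES), 7.93 and 8.91 (CP), and 5.90 and 4.88 (CM). The CM libraries were the lowest, but limma did not call the difference (log2 difference -0.34 ± 0.16 SE, adjusted p = 0.156).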

How the data were processed

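ATAC-seq of RUES2 cells was analysed at 4 stages with 2 libraries each. Reads had been aligned by the authors to hg38 (BWA-MEM 0.7.13), filtered to primary locations of mapping quality over 30 and freed of duplicates (Picard). The authors then ran MACS2 2.1.0 per library (q-value 0.01, shift 100 bp upstream, extension 200 bp). The deposited lists give each peak's fold over background (a ratio, not scaled between libraries), the −log10 p and −log10 q and a display score, which was not used. They hold no read counts.

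Here the highest fold within 1 kb of a protein-coding TSS (GENCODE 44) was taken per gene, log2-transformed and centred on the library median. It was tested with limma 3.58.1 in R 4.3.3 over all genes with a peak in all 8 libraries, with a threshold of 0.05 on Benjamini-Hochberg adjusted p and two-sided contrasts. All 8 libraries shared 1 estimate of the spread. A gene without a peak in every library was not fitted. The fit was tested on simulated data. Peaks merged over libraries were tested in the same way. Background was recovered from fold and −log10 p. Clusters were split at gaps over 500 kb between TSSs. Promoter sequence came from RefSeq, with 210 members matched. Zinc fingers were not counted, since no protein sequences were used here.

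The members and lists were chosen with earlier results of these data known. Members named were a fixed set of 15 known genes, the 6 of highest fold, those past the F-test, those open in hESC or CM alone, the first 10 without a peak, the 6 with most gene-body peaks (ties included) and members of the clusters with the lowest and highest share. Alternatives were other windows, TSSs, peak thresholds, list lengths and normalizations, imputed values, a replicate block and each library left out.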

Additional observations from a re-analysis of the deposited data

How the results depend on the processing

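Promoter peaks in all 8 libraries (219 members) and in none (14) stayed within 1.5 times these counts under every alternative. With a library left out the counts were 219 to 220 and 14 to 15. Lists of equal length gave 0 members with a peak in both hESC and neither CM library in place of 3, and 3 to 5 with a library left out (5 without CM replicate 1). The opposite pattern had 0 to 1 members (1 without CM replicate 2).

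The F-test called 3 members with canonical TSSs, 2 each with TSSs of all transcripts (chosen after seeing the data), lists of equal length, −log10 q of at least 5, summits inside the window and a 2 kb window, and 0 with no centring and with quantile normalization. With missing values set to the lowest fold it called 1, which was ZNF439 and not ZNF358. The comparison of CM with hESC called 3 members with missing values set to the lowest fold and 1 with no centring, in place of 5, and the steps between stages called 1 with missing values set to the lowest fold, from CP to CM. With each library left out, the F-test called 0 to 5 members (5 and 4 without CP replicate 1 and 2, 1, ZNF835, without CM replicate 2 and 0 otherwise), CM against hESC 0 to 10 (0 without hESC replicate 1 or 2, 1 without CM replicate 2, 10 without CP replicate 1 or 2, and 3 without any one of the other libraries) and the gene-body F-test 0 to 3 regions (2 and 3 without CP replicate 1 and 2, and 0 otherwise). A stage with 1 library left is assumed to vary like the others. The gene-body F-test called 40 regions with missing values set to the lowest fold, where more regions were tested, and 0 with quantile normalization. Apart from that, the cause of these changes was not tested.

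With the replicate block, the F-test called 0 members and CM against hESC 5. Libraries of one replicate number deviated together with correlations of -0.19 to 0.16 between stages, so the numbers do not pair the samples. Across 19 alternatives, the log2 differences were -0.71 to -0.62 for ZNF358 (called in 17), -0.59 to -0.47 for ZNF671 (15), -0.67 to -0.43 for ZNF578 (11), 0.52 to 0.65 for ZNF813 (14) and 0.50 to 0.59 for ZNF865 (11), with adjusted limma p of 0.00753 to 0.183. CM replicate 2 had the lowest background and the shortest list, and the part of depth in which weak peaks were listed was not tested.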
